A study of Macaca mulatta with 12 samples.

Results

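The dorsal and the ventral parvocellular layers of the macaque lateral geniculate nucleus were compared across genes, with 4 arrays of layers 5 and 6 set against 4 arrays of layers 3 and 4. These were 8 of the 12 arrays of the series, taken by the layer named in each sample's title. The 4 arrays of the magnocellular layers 1 and 2 stayed out of the comparison. All samples were total RNA of single layers from monocularly deprived rhesus macaques (Macaca mulatta), 1 array per layer and hemisphere, and no group came from animals with normal vision. How many animals there were, which layers came from the same animal, their genotype and age and how long the eye was deprived are not stated in the labels. The dorsal group held the deprived layer 5 and the open-eye layer 6 of the hemisphere labelled ipsilateral, and the open-eye layer 5 and the deprived layer 6 of the contralateral one. The ventral group held the deprived layer 3 and open-eye layer 4 ipsilaterally, and the open-eye layer 3 and deprived layer 4 contralaterally. Each class thus held each combination of deprivation and hemisphere once. This also gave 4 matched pairs of the same hemisphere and the same eye, layer 5 with layer 3 and layer 6 with layer 4.

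The lateral geniculate nucleus is the thalamic relay between retina and primary visual cortex. Its parvocellular layers receive midget retinal ganglion cells and carry fine spatial detail and red-green colour, while the magnocellular layers below them receive parasol cells and carry motion and low contrast. Thin koniocellular zones lie between the main layers, and each main layer is driven by a single eye. In recordings from macaques, cells responding to light onset have been found mostly in the dorsal parvocellular pair and cells responding to light offset mostly in the ventral pair. The comparison asks whether the tissue of these pairs also differs in its transcripts.

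Both groups carried the transcripts of thalamic relay tissue, several of them at similar levels. SLC17A6, the vesicular glutamate transporter of thalamic relay neurons, had a mean scaled intensity of 30590 ± 6813 dorsally and 32550 ± 3382 ventrally (SD, n = 4 each), a log2 difference, dorsal minus ventral, of -0.11 with a 95% interval of -0.48 to 0.27. TCF7L2, a transcription factor of thalamic neurons, had 69990 ± 7336 and 62320 ± 2857, a log2 difference of 0.16 (-0.15 to 0.47). SNAP25, a presynaptic fusion protein, differed by 0.06 (its other probe set -0.53, lower in 3 of 4 pairs) and ENO2, neuronal enolase, by 0.01. The tissue was not neurons alone: MBP, myelin basic protein, stood at 51450 ± 2178 and 54440 ± 12720, and GFAP, the astrocyte filament protein, at 3175 ± 907 and 3452 ± 1853. The sign of the differences of SLC17A6, ENO2, MBP and GFAP turned under 1 to 4 of 19 other settings. Of the 12 relay neuron markers tested, 5 had positive and 7 negative differences. Their median was -0.08 on the log2 scale, which ran from -0.12 to 0.07 under other settings. The members of smallest p lay farther from 0. NTNG1 had 0.39 (-0.12 to 0.91), higher dorsally in 4 of 4 pairs. ZFHX3 had -0.51 (-1.22 to 0.20), lower in 3 of 4. In such layer-wide RNA, fewer cells of a type and less RNA per cell cannot be told apart.

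No probe set passed the test between dorsal and ventral parvocellular layers. Of 11104 probe sets tested, 0 passed (0%) at an adjusted p under 0.05 in limma, with deprivation and hemisphere as covariates. The smallest adjusted p was 0.557. At an unadjusted p under 0.05 there were 311 probe sets, 134 higher and 177 lower dorsally, where 555.2 would be expected from evenly spread p-values. On the same 8 arrays and in the same fit, 5 probe sets passed between deprived and open-eye layers (0.045%), all higher in deprived layers, and 715 had an unadjusted p under 0.05. Between hemispheres 0 passed (0%) in limma and 1372 had an unadjusted p under 0.05. At that unadjusted level, dorsal or ventral position thus had the fewest probe sets of the 3 terms.

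**Figure D1:**
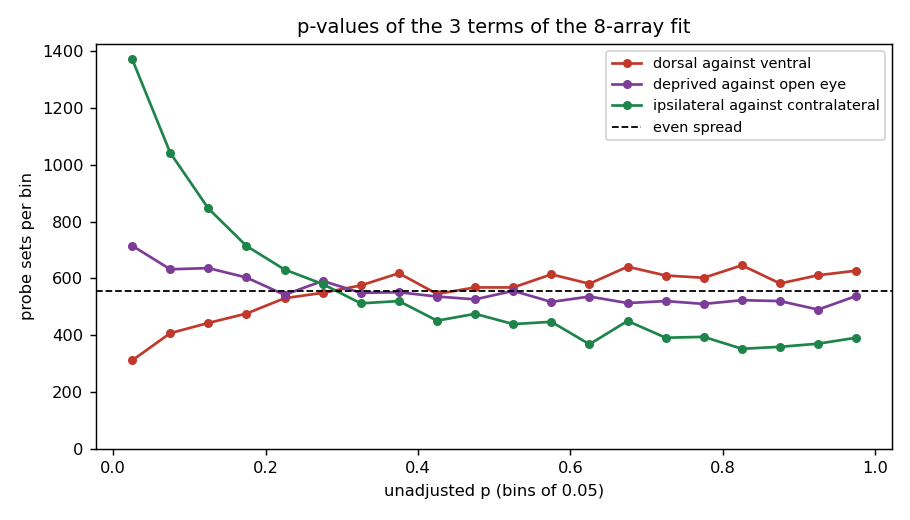
Number of probe sets (vertical axis) in each bin of unadjusted p of width 0.05 (horizontal axis), for the 3 terms fitted to the 8 parvocellular arrays; the dashed line is the number per bin if p were evenly spread (555.2). The first bin holds 311 probe sets for dorsal against ventral, 715 for deprivation and 1372 for hemisphere.

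The differences were small and their intervals of moderate width. The median log2 difference over all probe sets was -0.0156, the middle 50% lay between -0.173 and 0.133, and 10446 (94.1%) were below 0.5 in size. The median 95% interval reached 0.524 on the log2 scale to either side of the estimate. For 9511 probe sets (85.7%) the interval lay inside a 2-fold difference in either direction, and for 1148 (10.3%) inside 0.5 on the log2 scale. A difference of 2-fold or more was measured for 25 probe sets (0.225%). A lone probe set of median standard error would need a log2 difference of 1.83, or 3.57-fold, to pass; probe sets of smaller error would need less. Every dorsal array lay above every ventral array for 65 probe sets (0.585%) and below for 87 (0.784%). In all 4 matched pairs 576 (5.19%) were higher and 616 (5.55%) lower dorsally.

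Measures of array quality differed between the groups by less than the spread within them. The median intensity was 523 ± 88.4 dorsally and 549 ± 81.8 ventrally (n = 4 each, two-sided exact permutation p = 0.714), and the mean correlation with the other parvocellular arrays was 0.93 and 0.928 (exact permutation p = 0.686). The GAPDH 3'/5' control ratio, a measure that goes up with RNA degradation, was 4.65 ± 4.24 and 4.04 ± 1.18 (exact permutation p = 0.971), and that of ACTB 24.7 ± 5.79 and 26.6 ± 12 (not different beyond their spread). All 4 comparisons had an adjusted p of 0.971 by the exact permutation test, and the smallest p this design allows is 0.0286. These comparisons are between the groups and do not show that the arrays were of good quality. The ACTB ratio ran from 17 to 43.9 over the parvocellular arrays, so its 3' signal was far above its 5' signal on each. The reason was not tested. The deprived ipsilateral layer 5 had a GAPDH ratio of 11 against 2.21 to 2.88 on the other dorsal arrays. Without that array 0 probe sets passed in limma and 319 had an unadjusted p under 0.05.

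The 14 genes of smallest p with a higher level dorsally in all 4 matched pairs were led by SLC39A2, DAZAP2 and MYL2, and none of them passed. They were chosen by p and by the sign of the pairs, so their values describe the top of the ranking. SLC39A2, a zinc importer of the ZIP family, measured 1239.3 and 1259.3 in the ipsilateral layers 5 and 6 and 1016.9 and 1130.5 in the contralateral ones, against 241.2 and 297.1 in the ipsilateral layers 3 and 4 and 386.1 and 454.1 in the contralateral ones. All dorsal arrays were high, all ventral arrays low, and the groups were well apart. The difference was 3.46-fold (log2 1.79 ± 0.30, SE; 95% interval 1.14 to 2.44), with an adjusted p of 0.557 in limma. The magnocellular arrays spanned that range, with 191.8 and 165.6 in layer 1 and 631.9 and 1389.5 in layer 2.

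MYL2, the regulatory light chain of cardiac and slow muscle myosin, measured 2179.1 and 1699.9 in the ipsilateral layers 5 and 6 and 1579.1 and 3079.2 contralaterally, against 1491.4, 862.4, 1062.5 and 1410.9 in the ventral arrays. The groups did not overlap, and the lowest dorsal array was close to the highest ventral one (log2 0.81, 0.36 to 1.25, adjusted p = 0.9996 in limma). TOX, an HMG-box transcription factor, measured 1252.3, 1589.1, 1262.4 and 1805.2 dorsally. Ventrally it measured 453.3 and 514.0 ipsilaterally and 1108.1 and 1184.5 contralaterally, so the ventral values split by hemisphere while the dorsal ones did not. Its log2 difference was 0.97 (0.37 to 1.58), and its other tested probe set had 0.54, higher dorsally in 4 of 4 pairs.

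TMSB10, thymosin beta-10, an actin-sequestering peptide, had the smallest difference of these genes, 0.47 (0.16 to 0.79), from 54290 ± 8004 ventrally to 75080 ± 7065 dorsally. The actomyosin gene MYL12B, a non-muscle myosin light chain, had 0.63. Genes that act on RNA included PAPOLA, a poly(A) polymerase (0.74; its other probe sets 0.24 and 0.02), CSTF3, a cleavage stimulation factor subunit (0.64), and SKIC3, a subunit of the exosome-associated SKI complex (0.95; its other probe set 0.23). EIF5B, which joins the ribosomal subunits, had 0.68, and its other 4 probe sets had 0.64, 0.37, 0.34 and -0.17. For DAZAP2 (0.98), UQCRB of respiratory complex III (0.57) and AP2A2, a clathrin adaptor subunit (0.76), another probe set of the gene had the opposite sign (-0.14, -0.47 and -0.13). MPHOSPH8, a chromatin silencing factor, had 0.73, and PPID, a cyclophilin, 0.66. The adjusted p was 0.9996 for each of these 13 genes after SLC39A2 (limma). In 11 of the 14 the groups did not overlap, as for 0.585% of all probe sets, a count that the choice by p largely fixes.

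The 14 genes of smallest p with a lower level dorsally in all 4 pairs were led by AACS, DENND3 and ALDH1A1, and none of them passed. DENND3, an exchange factor for a Rab GTPase, had the largest difference. It measured 143.5 and 233.8 in the ipsilateral layers 5 and 6 and 715.0 and 539.3 contralaterally, against 837.2 and 738.7 in the ipsilateral layers 3 and 4 and 1010.6 and 1465.4 contralaterally. Ipsilateral arrays were the low ones in both groups, and the groups did not overlap. The level was 2.90-fold lower dorsally (log2 -1.54 ± 0.35, SE; -2.29 to -0.78; adjusted p = 0.9996, limma).

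ALDH1A1, which makes retinoic acid from retinal, measured 892.1, 1938.8, 2083.7 and 1668.5 dorsally against 4469.3, 2489.6, 3141.5 and 4016.4 ventrally. The deprived ipsilateral layers 5 and 3 were the lowest dorsal and the highest ventral array, and no dorsal array reached a ventral one (log2 -1.14, -1.75 to -0.52). AACS, acetoacetyl-CoA synthetase of the ketone-body route to lipids, measured 1491.7, 1514.5, 1041.2 and 1291.2 dorsally and 2485.2, 2719.4, 2311.5 and 2225.3 ventrally. Both groups were tight (log2 -0.88, -1.31 to -0.45), and the magnocellular level of 1418 ± 281 was near the dorsal one. GABBR1, a subunit of the metabotropic GABA-B receptor, measured 8697.4, 9541.8, 8864.5 and 6884.2 dorsally against 10977.4, 20043.6, 11135.7 and 12592.0 ventrally. The open-eye ipsilateral layer 4 stood highest, and without overlap the other ventral arrays lay just above the dorsal ones (log2 -0.65, -1.08 to -0.22).

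MEG3, an imprinted long non-coding RNA, had 5159 ± 1281 dorsally and 9280 ± 1421 ventrally (log2 -0.87), and its other probe set -0.12. LPCAT4, a lysophospholipid acyltransferase, had -1.13, and its other probe set -0.90, lower in 4 of 4 pairs. VCAM1, an adhesion molecule of activated endothelium, had -0.85. FHOD1, a formin, had -0.92 and MICALL2, an adaptor of junctional trafficking, -1.23. Of the remaining genes HPS6, of lysosome-related organelles, had -0.89, TM4SF1, a tetraspanin-like membrane protein, was 2.01-fold lower, and MIA3, of collagen export from the endoplasmic reticulum, had -0.94. BAZ2A, of the nucleolar remodelling complex, had -0.72 (its other probe set -0.09), and CHCHD2, a mitochondrial protein, -0.62. The adjusted p was 0.9996 for each (limma). In 10 of these 14 genes the groups did not overlap, against 0.784% of all probe sets, again largely fixed by the choice. Of the 28 leading genes, 11 had another tested probe set, and in 7 of those every other probe set had the same sign.

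**Figure D2:**
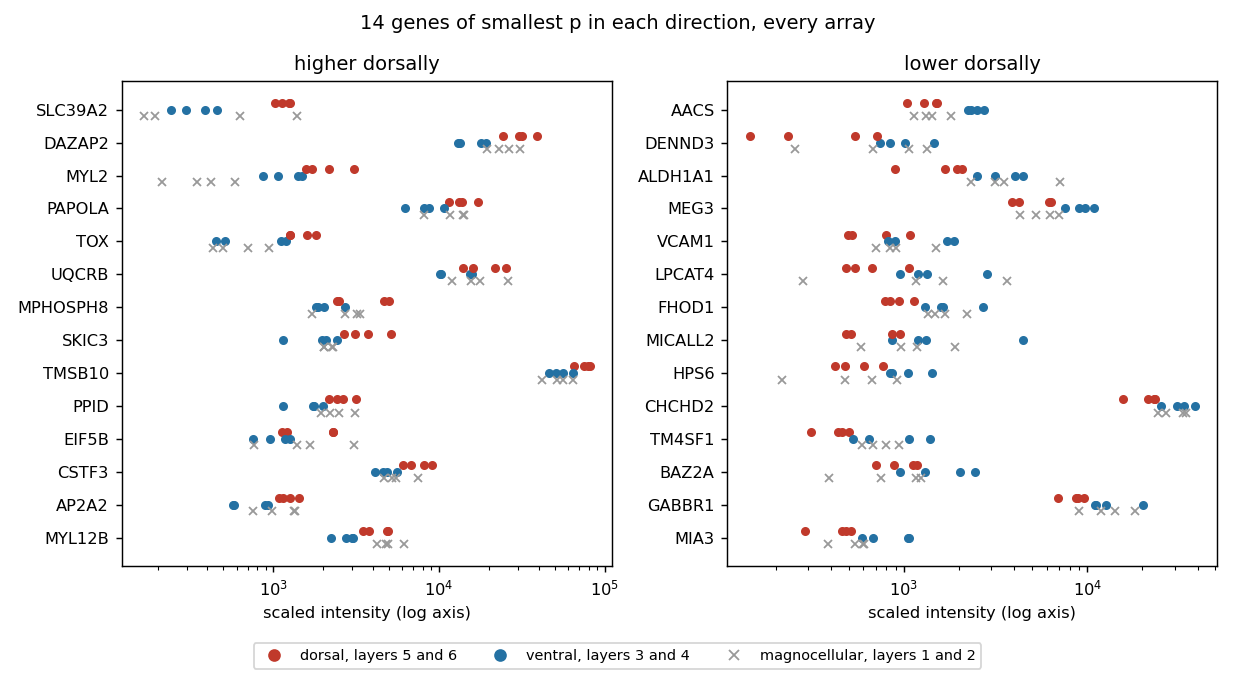
Scaled intensity on a log axis for the 14 genes of smallest p in each direction, 1 point per array: 4 dorsal, 4 ventral and, for reference, 4 magnocellular. SLC39A2 shows the widest gap, with dorsal arrays from 1016.9 to 1259.3 and ventral arrays from 241.2 to 454.1, while most other genes have groups that touch or nearly touch.

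Genes that separate magnocellular from parvocellular layers had smaller differences between the 2 parvocellular pairs than from either pair to the magnocellular layers. The 20 tested genes of this list had been picked for that separation on these same arrays, so their magnocellular differences are given as a description. Their median difference in size was 0.189 on the log2 scale between dorsal and ventral layers, 1.5 between dorsal and magnocellular and 1.47 between ventral and magnocellular layers. The latter pair of comparisons shares the magnocellular arrays. None had a dorsal-ventral difference of 1 or more in size, and for 17 of 20 the whole 95% interval lay inside that bound, a share like the 85.7% over all probe sets. Over all probe sets the median size was 0.153. In a fit of all 12 arrays, 23 of 11105 probe sets (0.207%) passed between dorsal and magnocellular layers, 15 (0.135%) between ventral and magnocellular layers, and 0 between dorsal and ventral layers (274 at an unadjusted p under 0.05, limma).

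CDH6, a classical cadherin, measured 1703.7, 2995.0, 3174.4 and 1663.4 dorsally, 2305.3, 1849.4, 3385.3 and 2414.3 ventrally, and 8419.0 to 9831.3 in the magnocellular arrays. The parvocellular groups overlapped throughout (log2 -0.09, -0.61 to 0.43), while their differences from magnocellular layers were -1.96 and -1.86. ADCYAP1, the neuropeptide PACAP, measured 2962.6, 2289.0, 3127.5 and 3654.5 dorsally, 2028.1, 2771.3, 2998.7 and 3071.4 ventrally, and 528.6 to 1379.4 in the magnocellular arrays. Its dorsal-ventral difference was 0.15 (-0.30 to 0.59), against 1.91 and 1.76 from magnocellular layers. The signalling ligand WNT5A (0.12) and the stress peptide CRH (-0.09) had intervals that spanned 0, and the sign of both, and of CDH6, turned under 2 of 19 other settings.

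A few members of the list were not at the same level in both parvocellular pairs by value. MYL2 had the largest dorsal-ventral difference of the list (0.81), with 2134 ± 681 dorsally, 1207 ± 296 ventrally and 391 ± 155 in magnocellular layers. Its difference from magnocellular layers was 2.49 for the dorsal and 1.68 for the ventral pair, so the ventral pair lay between. TGFBR2, a TGF-beta receptor, was lower dorsally in 4 of 4 pairs (-0.47, -0.98 to 0.03), with -2.26 and -1.78 from magnocellular layers. DUSP6, a phosphatase that restrains ERK, had -0.51 (-1.01 to -0.01), with -1.45 and -0.94. None of these dorsal-ventral differences passed (adjusted p = 0.9996 each, limma). The reported magnocellular markers, neurofilaments and others, had 7 positive and 5 negative differences among 12 tested and a median of 0.05. Of these NEFH differed by 0.04, NEFM by -0.08 and NEFL by 0.15, while the members of smallest p were TMSB10 (0.47) and CALB1 (-0.72).

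**Figure D3:**
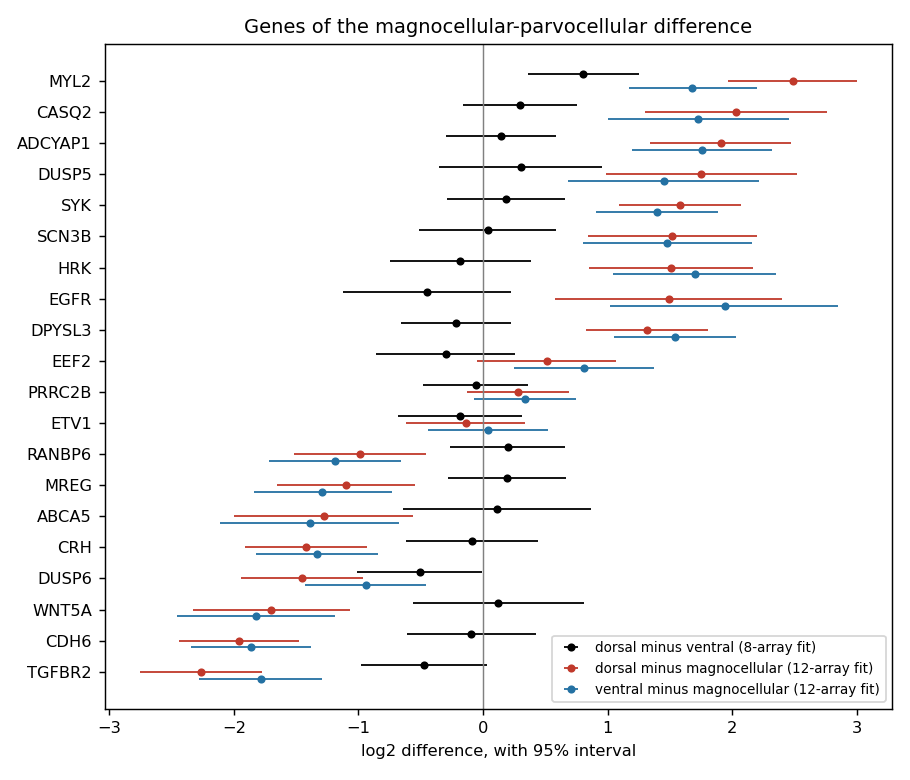
Log2 differences with 95% intervals (horizontal axis) for the 20 tested genes of the magnocellular-parvocellular list, as dorsal minus ventral in the 8-array fit and as dorsal or ventral minus magnocellular in the 12-array fit. The dorsal-ventral values lie between -0.51 and 0.81 around 0; for 16 of 20 genes the dorsal and for 16 the ventral difference from magnocellular layers is 1 or more in size, and EEF2, PRRC2B and ETV1, shown by their probe set of highest mean, stay near 0 or below 1.

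Markers of koniocellular neurons lay on both sides of 0 and those of inhibitory neurons were mostly negative, and no member of either list passed. CALB1, the calcium buffer calbindin of koniocellular cells, which is also on the reported magnocellular list, measured 1138.9, 633.3, 620.4 and 506.9 dorsally against 1186.1, 1175.6, 915.8 and 1301.3 ventrally. The deprived ipsilateral layer 5 was at the ventral level and the other dorsal arrays were below it (log2 -0.72, -1.29 to -0.15; its other probe set -0.37, lower in 3 of 4 pairs). PENK, the enkephalin precursor, had -0.51, lower in 4 of 4 pairs. CAMK2N1, an inhibitor of CaM kinase II, had 0.35, higher dorsally in 4 of 4 pairs, and GRB14, a receptor adaptor, 0.17, both named after their values were seen. Of 5 koniocellular markers tested, 3 were negative and 2 positive. Their median of -0.44, which was -0.0851 without the open-eye ipsilateral layer 6, stood against -0.0126 over all 7289 genes, of which 47.6% were positive. CAMK2A, a kinase of these cells, was that median member, lower dorsally in both ipsilateral pairs and higher in both contralateral ones.

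GAD1, the main GABA-synthesising enzyme, measured 31199.4, 20048.0, 21180.3 and 18272.9 dorsally against 31815.9, 31644.7, 24298.2 and 41850.4 ventrally. Again the deprived ipsilateral layer 5 reached the ventral range and the other dorsal arrays lay below it (log2 -0.52, -0.94 to -0.10). GAD2, the synaptic form of the enzyme, measured 8300.5, 4938.3, 4916.0 and 4048.1 dorsally against 10412.9, 7318.3, 5436.1 and 8107.0 ventrally, with the same array high (log2 -0.51, -0.96 to -0.06). Both were lower in 4 of 4 pairs. Of 8 interneuron markers tested, 7 were negative, with a median of -0.185 that ran from -0.363 to -0.0346 over 11 other settings. PVALB, parvalbumin, which relay neurons also express, was the member at 0.07. The summed level of the 8 markers ranged from 56040 to 65300 in dorsal arrays and from 64390 to 86800 in ventral arrays. GAD1 and PVALB, the brightest members, added most to that sum.

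No glial or vascular marker passed, and 5 of these 6 lists had medians slightly below 0. Of 16 oligodendrocyte markers 9 were positive, with a median of 0.08 (-0.02 to 0.19 over other settings). CLDN11, of the myelin tight junction, had 0.60 and CNP, a myelin enzyme, 0.42. CNP had 0.27 without the open-eye contralateral layer 5 or without the deprived contralateral layer 4. The other 7 were negative, and MAG, named after its value was seen, had -0.41, lower in 3 of 4 pairs. Of 16 astrocyte markers 12 were negative, with a median of -0.06 that turned to 0.01 after median centring. The glutamate transporters SLC1A3 and SLC1A2 had -0.65 and -0.42 (-0.09 for SLC1A2 without the open-eye ipsilateral layer 6, which measured 21712.0 against 47558.5 to 62622.4 on the other dorsal arrays), and the largest pair value of SLC1A3 was -1.73 in the deprived ipsilateral layers. Negative members were 7 of 9 for microglia (median -0.09), 11 of 17 for endothelial and mural cells (-0.08), 4 of 6 for ependyma, choroid plexus and meninges (-0.08) and 2 of 3 for blood (-0.01). Each of these medians turned sign under at least 1 other setting. The summed levels of these lists overlapped between the groups: 159400 to 212300 dorsally and 132100 to 245700 ventrally for oligodendrocytes, and 169500 to 227200 and 207300 to 245800 for astrocytes. Their part in the gene differences above was not tested.

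Receptors and channels had no member past the threshold. Among 8 GABA and glycine receptor genes 5 were negative (median -0.07, 0.01 after median centring), GABBR1 having the smallest p. Of 5 metabotropic glutamate receptor genes 3 were negative and 2 positive, with a median of -0.28 that ran from -0.492 to -0.0578 over other settings (-0.0578 without the open-eye ipsilateral layer 6 and -0.0705 without the deprived contralateral layer 6), and GRM7, a presynaptic autoreceptor, had -0.62, lower in 4 of 4 pairs (its other probe set -0.33, also in 4 of 4). The 10 ionotropic glutamate receptor genes had 7 negative and a median of -0.08, with the NMDA receptor subunit GRIN2B at -0.52 (-0.14 without the open-eye ipsilateral layer 6). SCN3A, a sodium channel, measured 1554.4, 1444.6, 1093.4 and 1569.7 dorsally against 2117.3, 2120.1, 1578.3 and 3045.2 ventrally. The groups did not overlap, by a narrow margin (log2 -0.62, -1.10 to -0.15), as for 0.784% of all probe sets in that direction. SCN3A was named for its small p in its list, which favours such a gap. CACNA2D2, a calcium channel subunit, had -0.53, while the 14 sodium, calcium and HCN channel genes had a median of -0.06, which was 0.01 after median centring. Of 23 potassium channel genes 11 were positive and 12 negative, with KCNA3 at -0.70 and KCNQ3 at -0.38.

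HPCAL1, a neuronal calcium sensor, had the smallest p of 25 calcium-binding and calmodulin genes (log2 -0.93, -1.48 to -0.38). It was lower dorsally in 3 of 4 pairs, and the contralateral layers 5 and 3 were level at 2434.3 and 2383.2. The median of that list was -0.004, with 12 positive and 13 negative members, and HPCAL1 was named for its smallest p. Among the negative members were also CALB1 (-0.72) and HPCAL4 (-0.60). Synaptic vesicle genes had 10 positive and 17 negative differences (median -0.09, -0.13 to -0.02 over other settings), with AMPH, an endocytic adaptor, at 0.39 and BSN, an active zone scaffold, at -0.43. Neuropeptides had 4 positive and 10 negative (median -0.07, 0.00 after median centring), and PNOC, the nociceptin precursor, had -1.11, and -0.46 without the open-eye ipsilateral layer 6 (52, below the floor). Of 11 aminergic, cholinergic and peptide receptor genes 5 were positive, with NPY1R at 0.43 and NTRK2, a BDNF receptor, at 0.33 (its other probe sets -0.14 and 0.14). Activity-regulated genes, which follow neuronal firing, had 10 positive and 12 negative among 22 and a median of -0.03 that was 0.04 after median centring, with the transcription factor JUND at -0.37.

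Genes of layer formation and connectivity gave values on both sides of 0. Of 29 axon guidance genes 20 were negative (median -0.12, -0.23 to 0.07 over other settings), with the Slit receptor ROBO1 at 0.71 and the ephrin EFNB3 at -0.79. Without the open-eye ipsilateral layer 6, where EFNB3 measured 196.9 against 856.3 to 1172.0 on the other dorsal arrays, these were 0.46 and -0.18. Of 10 cadherins and protocadherins 5 were positive, with CDH2, N-cadherin, at 0.60 and higher dorsally in 4 of 4 pairs (its other probe set 0.09), and PCDH7 at -0.60 and lower in 4 of 4. Wnt and TGF-beta pathway genes had 13 positive and 17 negative, with the ligand TGFB2 at -0.72, lower in 4 of 4 pairs (its other probe set 0.08). Among 26 neurotrophic and growth factor genes, 13 lay on each side. IGF1R, a receptor for insulin-like growth factor, measured 1609.4, 1190.8, 1192.2 and 1415.6 dorsally and 1077.7, 1081.2, 896.5 and 890.0 ventrally. Its groups did not overlap (log2 0.45, -0.01 to 0.91), as for 0.585% of all probe sets in that direction. The gene was named for its small p in its list, which favours such a gap. FGF13, an intracellular FGF homolog that binds sodium channels, had -0.53, and HLA-C among 13 MHC class I and complement genes had -0.36, both lower in 4 of 4 pairs. The other probe sets of HLA-C had -0.06 and 0.01. A single dorsal array stood apart from the other 3 for CLDN11, PENK, PNOC, PCDH7, NTRK2, CACNA2D2 and TGFBR2, and a single ventral one for GFAP and NEFL. In all, 13 of 262 groups of 4 arrays were flagged in this way, where chance alone flags about 1 in 20.

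The lists of housekeeping machinery had more positive than negative differences, mostly of small size. Over all 7289 genes 47.6% were positive. Of 60 nuclear genes of oxidative phosphorylation, the respiratory chain and ATP synthase, 45 were positive, with a median of 0.101 that ran from 0.0722 to 0.174 over 11 other settings, and 0 passed (2 at an unadjusted p under 0.05, limma). UQCRB measured 13960.1, 25502.6, 21662.4 and 16063.3 dorsally against 10276.5, 15761.1, 15297.7 and 10181.9 ventrally. Each dorsal array was above its ventral partner while the groups overlapped. The other probe sets of UQCRB had -0.47, lower in 3 of 4 pairs, and 0.02. COX7B, of cytochrome oxidase, had 0.39, and 0.23 without the deprived ipsilateral layer 5. All 60 intervals of that list lay inside a 2-fold difference, as did 6360 of the intervals of all 7289 genes. The median interval of the list was narrower, reaching 0.448 to either side against 0.512 over all genes. The 4 pair medians were 0.17 and 0.12 ipsilaterally (5 with 3, 6 with 4) and -0.002 and 0.06 contralaterally.

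Of 51 ribosomal protein genes 37 were positive, with a median of 0.0974 (-0.0126 to 0.192 over other settings). The pair medians were -0.01, 0.05 and 0.01, and 0.387 for the contralateral layers 6 and 4, and without the deprived contralateral layer 4 the median was -0.0126. RPS29 had 0.44 and RPL34 0.35. Of 29 proteasome genes 19 were positive (median 0.06, -0.03 to 0.14). The members of smallest p were PSMC1 (0.33, -0.08 to 0.73) and PSMA2 (0.31, -0.10 to 0.71), and the other probe set of PSMA2 had -0.21. For both, every dorsal array lay above every ventral one, as for 0.585% of all probe sets, a gap that the choice by p favours. Heat shock and chaperone genes had 13 of 24 positive (median 0.09, -0.06 to 0.16), with HSP90AA1 at 0.35, whose other 3 probe sets were all negative (-0.47 to -0.07), and HSP90B1 at 0.68 (its other probe set -0.42). Glycolysis genes had 13 of 20 positive and a median of 0.04, with PGK1 at 0.50 (its other probe sets 0.13, 0.12 and -0.01) and PKM at -0.41. The 33 neuronal cytoskeleton genes had a median of 0.01, with the spectrins SPTAN1 and SPTBN1 at 0.32 and 0.30. Of their intervals 32 lay inside a 2-fold difference, and their median interval was also narrow, reaching 0.388 to either side.

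**Figure D4:**
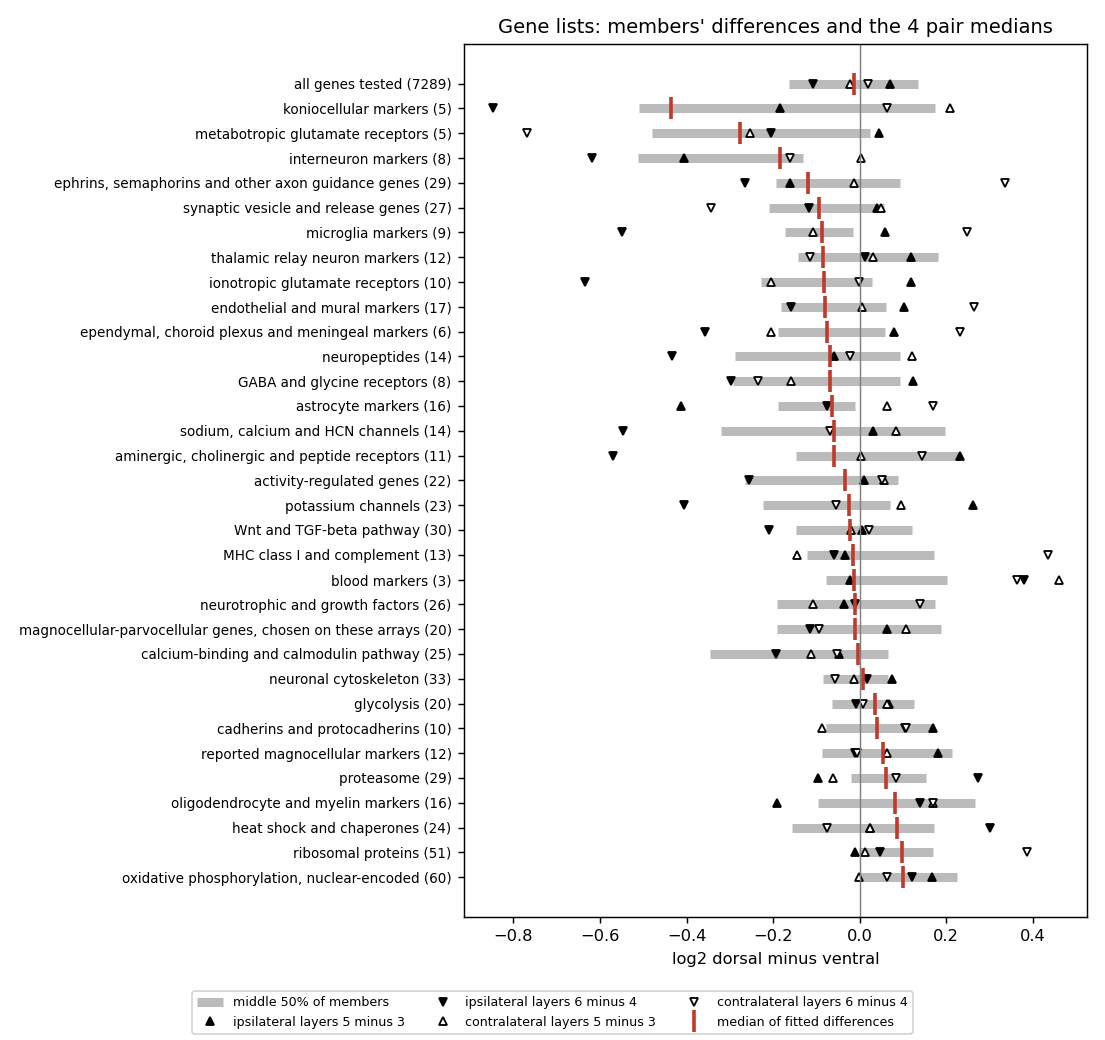
Log2 dorsal minus ventral difference (horizontal axis) for 32 gene lists and for all 7289 genes tested, with the number tested in brackets; the grey bar is the middle 50% of members, the red mark their median, and the triangles the medians within each of the 4 matched pairs. Most medians lie within 0.12 of 0 and their pair medians fall on both sides of it; koniocellular (-0.44) and metabotropic receptor genes (-0.28), with 5 members each, lie farthest from 0.

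Whether the dorsal-ventral difference itself depended on deprivation, hemisphere or the eye of input was tested with an interaction term each. Each had 0 probe sets past the threshold (0%) in limma, with 597, 338 and 394 at an unadjusted p under 0.05. With 1 array left out, the number past the threshold for the eye of input was no longer 0. It was 306 without the deprived contralateral layer 4 and 225 without the deprived contralateral layer 6. Without any other single array it was 1 to 11, and all these fits had 1 residual degree of freedom. For hemisphere, 1 probe set passed the threshold without the open-eye ipsilateral layer 4 or the open-eye contralateral layer 3. ENTREP3, a membrane protein of the ENTREP family, had the smallest adjusted p (0.371, limma) for the eye of input. It measured 281.3 and 162.0 in layer 6 against 2704.1 and 1453.3 in layer 4, the layers of the contralateral eye, and 454.6 and 1911.9 in layer 5 against 374.3 and 1368.9 in layer 3. Layer 6 minus layer 4 was -3.26 and -3.17 on the log2 scale, and layer 5 minus layer 3 was 0.28 and 0.48. Contralaterally layer 6 was the array apart, at 162.0. Ipsilaterally layers 3, 5 and 6 were all low and layer 4 was the array apart, at 2704.1. For SYN1, a synaptic vesicle protein, layer 4 was the high one in both hemispheres, with 17451.3 and 12360.0 against 3779.4 to 6702.7 in layers 3, 5 and 6 (adjusted p = 0.9997, limma).

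For hemisphere, KCNJ4, an inward-rectifier potassium channel, had pair differences of -4.67 ipsilaterally (layers 5 and 3; layer 6, at 44.6, was below the floor) and 2.18 and 1.52 contralaterally (adjusted p = 0.9999, limma). That contrast rested in part on 6322.9 in the deprived ipsilateral layer 3, where the other parvocellular arrays measured 44.6 to 1109.0. CPEB1, which controls polyadenylation of dormant mRNAs, measured 3117.4, 2512.7, 2801.7 and 2875.8 dorsally. Ventrally it measured 465.0 and 489.0 ipsilaterally and 3324.8 and 1526.5 contralaterally, so the ipsilateral ventral arrays were the low ones. For deprivation, URI1, a prefoldin-family chaperone, had the smallest p, with -1.15 in the contralateral deprived pair, a dorsal value below the floor (97.5 against 815.6) in the ipsilateral one, and 3.11 and 1.37 in the open-eye pairs (adjusted p = 0.815). VDAC1, the mitochondrial outer membrane channel, had -1.19 and -0.82 against 0.88 and 0.78 (adjusted p = 0.815).

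**Figure D5:**
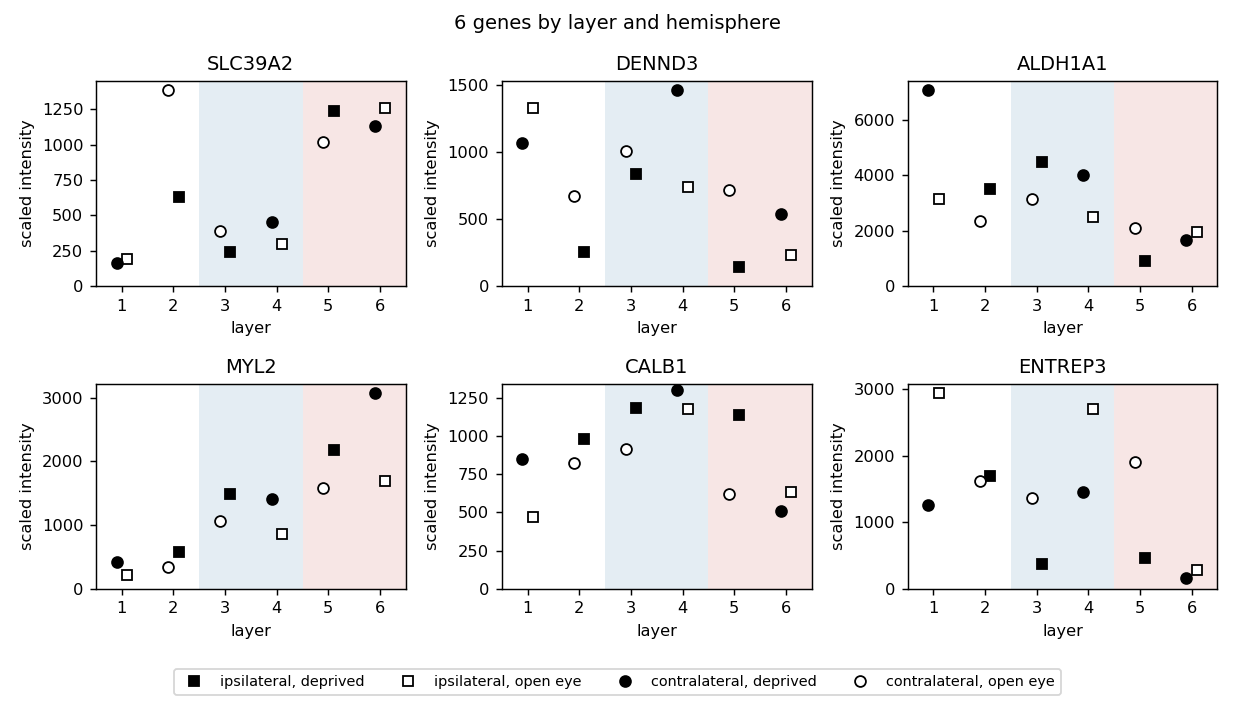
Scaled intensity (vertical axes, linear from 0) of 6 genes in each of the 6 layers (horizontal axes), with ipsilateral arrays as squares, contralateral arrays as circles and deprived layers filled; ventral parvocellular layers are shaded blue and dorsal ones red. For SLC39A2, MYL2, DENND3 and ALDH1A1 the blue and red layers do not overlap, and CALB1 is lower in the red layers except in the deprived ipsilateral layer 5 (1138.9). ENTREP3 is low in layer 6 of both hemispheres (281.3 and 162.0), and the ipsilateral layers 3 and 5 are also low (374.3 and 454.6).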

How the data were processed

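The deposited table held the authors' scaled intensity for each of 22283 probe sets of a human Affymetrix array on 12 arrays of macaque RNA. The labels name neither the software nor any detection calls. Macaque RNA can bind human probes less well, so each probe set was compared with itself. The arrays' 2%-trimmed means lay between 1500.45 and 1500.6, so the deposited intensities were used as scaled. They were raised to the pooled 20th percentile (110.8; 0.0462% of tested values) and put on the log2 scale. Of probe sets other than 68 controls, the 11104 whose mean was at or above the median were tested, and 9837 named 1 gene, 523 several and 744 none. Gene names came from the platform annotation; without a named build, coordinates and sequences are left out.

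limma 3.58.1 under R 4.3.3 (lmFit, eBayes with trend, two-sided, Benjamini-Hochberg over all tested probe sets) fitted layer class, deprivation and hemisphere with 4 residual degrees of freedom. Interaction terms were added singly, and the fit was tested on simulated data. Where samples shared an animal, p-values measure only the spread between samples and may be too small. Array measures were compared by exact permutation.

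The rule for named genes took those past the threshold with 1 sign in all 4 pairs, filled up to 14 per direction by smallest p and marked as not passing; the 5 of smallest p per interaction; 2 of smallest p per list; 14 fixed genes; and the magnocellular-parvocellular list. The comparison and the 32 lists, 1 probe set of highest mean per gene, were chosen with earlier results of these data known. Alternatives changed normalization, floor, filter, trend, covariates, samples and probe set choice, or left out each array.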

Additional observations from a re-analysis of the deposited data

Results flagged for a closer look

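In 262 groups of 4 arrays, 13 had 1 array farther from the rest than the 95% limit for groups of that size, and chance alone flags about 1 in 20 groups. In the deprived ipsilateral layer 5, CACNA2D2 measured 3225.2 (other dorsal arrays 1906.8 to 1998.9), RBM10 262.7 (1587.6 to 1998.6) and TGFBR2 685.7 (1037.9 to 1049.4). The same array had the GAPDH 3'/5' ratio of 11 (2.21 to 2.88) and a mean correlation with the other parvocellular arrays of 0.9093 (0.935 to 0.939). In the open-eye contralateral layer 5, CLDN11 measured 506.1 (821.9 to 867.9), NTRK2 2480.9 (3417.4 to 3594) and SLC7A6 371.8 (1836.7 to 2476.1). In the deprived contralateral layer 6, PCDH7 measured 2861.8 (5549 to 6001) and PENK 669.6 (1206.7 to 1242.1). In the open-eye ipsilateral layer 6, PNOC measured 52 (676 to 968.7), below the floor of 110.8. In the deprived ipsilateral layer 3, GFAP measured 6229.4 (other ventral arrays 2458.6 to 2629.7) and NEFL 29026.5 (50423.2 to 54479.4).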

How the results depend on the processing

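The count of 0 between dorsal and ventral layers was 0 in all 19 alternatives in limma, with 218 to 757 probe sets at an unadjusted p under 0.05 and a smallest adjusted p of 0.212. The 525 without the open-eye ipsilateral layer 6 were over 1.5 times the 311 reported. The 757 came without the filter, from 22215 probe sets tested where the main fit had 11104, so these 2 counts are not on the same base. With the matched pair as a block the count was 0 (382 at an unadjusted p under 0.05). The interaction with deprivation had 7 calls without the filter on dim probe sets. Leaving out 1 array gave 0 to 1 calls for hemisphere (KCNJ4 without the open-eye ipsilateral layer 4, SST without the open-eye contralateral layer 3). For the eye of input it gave 1 to 306, where a single residual degree of freedom was left. The 306 came without the deprived contralateral layer 4 and 225 without the deprived contralateral layer 6; the other 6 arrays gave 1 to 11, and ENTREP3 was among the calls without either open-eye ipsilateral layer 4 or 6. None of the 28 leading genes turned sign in 19 alternatives (18 for DENND3), while 26 of the other 99 named genes and 26 of 32 list medians did so in at least 1. Without 1 array, the difference shrank by over 1.5 times or turned in 1 of the 28 leading genes (SKIC3) and 79 of the other 99. The leading genes were chosen by smallest p and by 1 sign in all 4 pairs. That choice largely fixes both contrasts with the other named genes, so they are no measure of robustness. Median centring moved the median of all probe sets from -0.0156 to 0.0578. With 4 arrays per group, a probe set of median error would need a 3.57-fold difference to pass, and dim probe sets were left out.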

Other observations

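The median log2 differences of all genes within the pairs were 0.07 for the ipsilateral layers 5 and 3, -0.11 for the ipsilateral layers 6 and 4, -0.02 for the contralateral layers 5 and 3 and 0.02 for the contralateral layers 6 and 4.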
